A study of Mus musculus with 9 samples.

Results

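A group of 10 germline genes carried RING1B at their start sites in mouse embryonic stem cells (mESCs) that lack EED, at places where the list of RING1B peaks from Eed+/+ mESCs has none. They are *Sycp1*, *Sycp2*, *Smc1b*, *Ddx4*, *Mael*, *Mov10l1*, *Dazl*, *Taf7l*, *Zcwpw1* and *Slc25a31*, and their peaks are all those that the deposited lists assign to exactly one of these 10 gene names. This assignment gave 12 of 1810 peaks in the Eed-/- list and 2 of 2347 in the Eed+/+ list. The genes were chosen by measured values of these lists, namely an Eed-/- peak at the start site, its fold enrichment and the lack of an Eed+/+ peak there. Those values are therefore a description and carry no test.

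The cells are labelled as C57BL/6 embryonic stem cells, wild type (Eed+/+) or Eed-/-, grown with leukaemia inhibitory factor. Chromatin was immunoprecipitated with an antibody to RING1B after double fixation, and the recovered DNA was sequenced. The series has 9 samples, of which 1 is RING1B in Eed+/+, 3 are RING1B in Eed-/- and 3 are input of Eed+/+ cells, while the CBX7 samples (1 for each genotype) were not analysed here. The labels number the 3 Eed-/- RING1B samples as replicates, but they were described as sequencing lanes and pooled into 1 peak list, so each genotype is 1 sample with no replicate error. Sequencing of RING1B was 4.18 times deeper in Eed-/- than in Eed+/+. Intervals given here are exact 95% intervals on tag counts and cover counting error only.

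RING1B is the E3 ligase of Polycomb repressive complex PRC1 that monoubiquitylates histone H2A. EED is a core subunit of PRC2, the complex that methylates lysine 27 of histone H3, and cells without EED lose H3K27me3, the mark through which CBX-containing PRC1 binds chromatin. Genes of meiosis and gametogenesis are silent in most somatic and pluripotent cells, many have CpG-rich promoters that are targets of DNA methylation, and some are silenced in mESCs by a variant form of PRC1 that includes the DNA-binding proteins MGA, MAX and E2F6. MGA and MAX bind the E-box CACGTG, and E2F proteins bind motifs such as GCGGGAA.

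The start windows of *Ddx4*, *Slc25a31* and *Taf7l* are shown because they hold these motifs close to the start. Each runs from 250 bases before to 50 bases from the annotated start on the strand of the gene, in the mm9 build, with E-box and E2F motifs in capitals (TTCCCGC is the E2F motif on the opposite strand). *Ddx4* is chr13:113442469-113442768 on the minus strand, *Slc25a31* is chr3:40512527-40512826 on the plus strand and *Taf7l* is chrX:131010980-131011279 on the minus strand.
Ddx4: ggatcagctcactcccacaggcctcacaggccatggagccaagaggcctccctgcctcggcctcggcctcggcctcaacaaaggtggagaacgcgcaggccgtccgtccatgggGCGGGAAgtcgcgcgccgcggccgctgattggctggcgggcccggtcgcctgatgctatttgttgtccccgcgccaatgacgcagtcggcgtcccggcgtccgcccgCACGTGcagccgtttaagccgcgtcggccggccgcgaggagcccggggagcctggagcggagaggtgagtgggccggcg
Slc25a31: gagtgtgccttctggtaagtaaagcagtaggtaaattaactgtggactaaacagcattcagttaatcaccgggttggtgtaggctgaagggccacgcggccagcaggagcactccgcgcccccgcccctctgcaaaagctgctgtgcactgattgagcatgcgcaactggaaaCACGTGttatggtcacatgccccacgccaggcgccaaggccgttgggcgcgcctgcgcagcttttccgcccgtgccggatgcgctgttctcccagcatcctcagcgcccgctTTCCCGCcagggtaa
Taf7l: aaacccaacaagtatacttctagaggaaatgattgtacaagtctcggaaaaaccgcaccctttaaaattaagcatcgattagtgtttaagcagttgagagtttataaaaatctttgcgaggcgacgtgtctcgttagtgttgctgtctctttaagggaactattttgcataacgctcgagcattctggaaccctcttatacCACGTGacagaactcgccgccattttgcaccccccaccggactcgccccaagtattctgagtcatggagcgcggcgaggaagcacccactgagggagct

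Shorter stretches show the motif and 20 bases on each side for 6 further genes. They are chr3:102740092-102740137 for *Sycp1*, chr2:178141927-178141972 for *Sycp2*, chr15:84962409-84962455 for *Smc1b*, chr1:168169073-168169118 for *Mael* and chr17:50432410-50432455 for *Dazl*, all on the minus strand, and chr15:88813158-88813203 on the plus strand for *Mov10l1*.
Sycp1 E-box: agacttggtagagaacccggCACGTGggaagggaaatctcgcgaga
Sycp2 E-box: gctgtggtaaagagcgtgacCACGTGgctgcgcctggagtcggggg
Smc1b E2F: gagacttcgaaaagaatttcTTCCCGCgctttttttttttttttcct
Mael E-box: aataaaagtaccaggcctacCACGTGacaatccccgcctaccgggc
Mov10l1 E-box: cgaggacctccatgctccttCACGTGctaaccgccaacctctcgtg
Dazl E-box: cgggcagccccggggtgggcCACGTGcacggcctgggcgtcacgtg

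Each of the 10 genes had 1 Eed-/- peak over a start site of its own, and *Mael* had 2 more far upstream. Thus 10 of 12 peaks held a start site of the gene they were named for, and all 12 held an annotated start of some gene, against 77.1% of all Eed-/- peaks. For 10 of the 12, the choice of genes with a peak at the start site fixed this. None of the 10 start-site peaks overlapped an Eed+/+ peak, a property that the choice of the genes fixed, and 26.9% of all Eed-/- peaks had no Eed+/+ peak. The summit, the position of highest tag density as deposited, lay inside the gene for all 10, from 101 bp (*Smc1b*) to 503 bp (*Taf7l*) downstream of the start. Of the 10 summits, 5 fell in an exon of the gene, and the others fell in an intron.

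**Figure D1:**
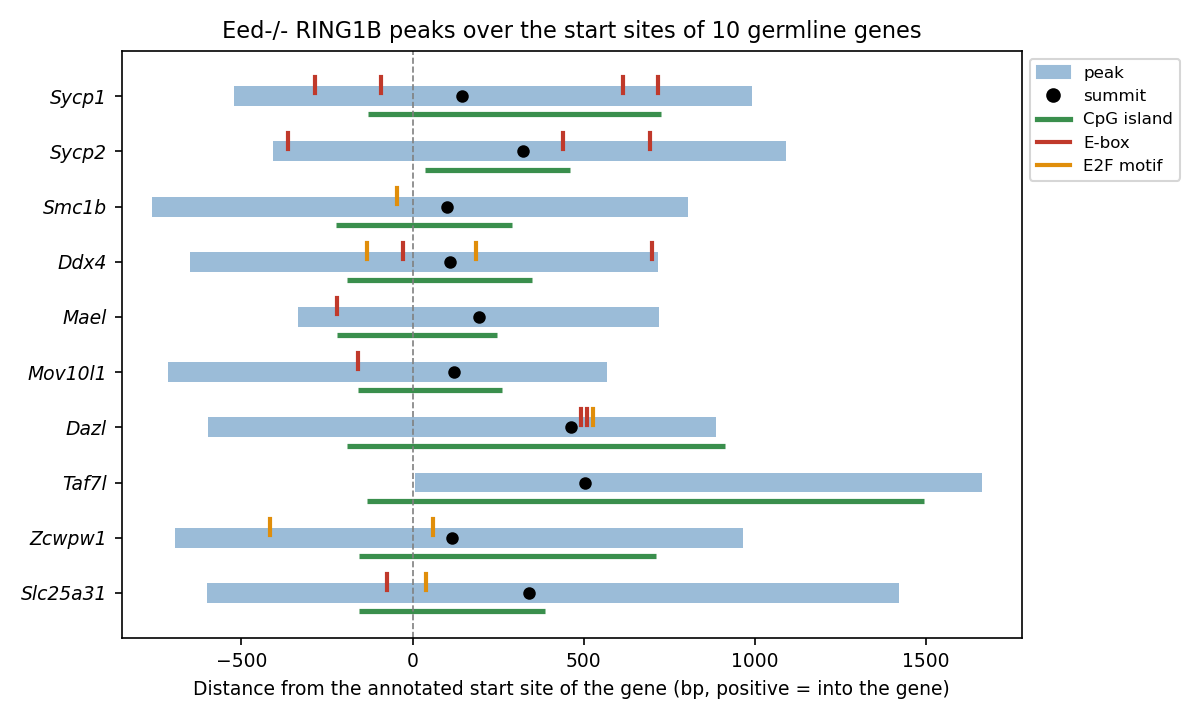
The map places each of the 10 start-site peaks (bars) on the distance from the start of its gene in bp, with summits as black points, CpG islands as green lines, and E-box and E2F motifs as red and orange ticks above the bar. Every summit lies to the right of the start, and the *Taf7l* peak begins 8 bp downstream of it.

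Genes of the meiotic chromosome axis had peaks of unequal height. *Sycp2*, which encodes an axial element protein of the synaptonemal complex, lies on chromosome 2 from 178079998 to 178142390 on the minus strand. Its peak (178141299 to 178142799, 1501 bp) held 218 tags at a fold enrichment of 12.38, the highest of the 361 Eed-/- peaks that lie over a start site and have no Eed+/+ peak. The nearest Eed+/+ peak was 4684 bp away, over the start of the neighbouring gene *Ppp1r3d*, and this was the shortest such gap among the 10 start-site peaks. *Sycp1*, which encodes the transverse filament of the same complex, lies on chromosome 3 from 102622422 to 102740023 on the minus strand. Its peak (102739030 to 102740545, 1516 bp) held 184 tags at a fold enrichment of 7.02.

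*Smc1b*, the meiotic form of a cohesin ATPase subunit, had the lowest values of the 10 start-site peaks. It lies on chromosome 15 from 84895121 to 84962387 on the minus strand, and its peak (84961581 to 84963147, 1567 bp) held 118 tags at a fold enrichment of 5.75. The peak also holds the start of *Ribc2*, which is transcribed the other way, so binding at the 2 starts cannot be told apart.

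Genes of the piRNA pathway and germ granule all had narrow peaks. *Ddx4*, the germ cell RNA helicase known as Vasa, lies on chromosome 13 from 113388541 to 113442518 on the minus strand. Its peak (113441801 to 113443169, 1369 bp) held 206 tags, was enriched 11.75-fold and ranked first of the 361 by the deposited peak score, which rises as the p-value of the peak falls. *Mael*, needed for transposon silencing in the testis, lies on chromosome 1 from 168131516 to 168168875 on the minus strand. Its start-site peak (168168156 to 168169211) was the narrowest of the 10 at 1056 bp, and held 133 tags at a fold enrichment of 9.67. *Mov10l1*, an RNA helicase of piRNA biogenesis, lies on chromosome 15 from 88813339 to 88885582 on the plus strand, and its peak (88812624 to 88813907, 1284 bp) held 142 tags at a fold enrichment of 6.97.

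The remaining genes act in RNA binding, transcription, chromatin and metabolism. *Dazl*, a germ cell RNA-binding protein, lies on chromosome 17 from 50418719 to 50432924 on the minus strand, and its peak (50432038 to 50433523, 1486 bp) held 163 tags at a fold enrichment of 8.34. *Zcwpw1*, a reader of histone methylation in meiosis, lies on chromosome 5 from 138229026 to 138263849 on the plus strand. Its peak (138228333 to 138229992, 1660 bp) held the most tags of the 10, 229, was enriched 11.23-fold, and had the lowest false discovery rate (FDR) of the 10, 0.5%. *Taf7l*, a germ cell subunit of the TFIID complex, lies on chromosome X from 130994657 to 131011029 on the minus strand. Its peak (131009365 to 131011021, 1657 bp) held 153 tags at a fold enrichment of 11.88, covered the start of a shorter annotated transcript and missed the first annotated start by 8 bp. *Slc25a31*, the ADP/ATP carrier of the testis, lies on chromosome 3 from 40512777 to 40529515 on the plus strand, and its peak (40512177 to 40514198) was the widest of the 10 at 2022 bp, with 219 tags and a fold enrichment of 8.05.

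Within the Eed-/- list the 10 start-site peaks were high in fold enrichment but narrow. The median fold enrichment over the authors' background was 9.01, against 4.91 over all 1810 peaks and 4.71 over the 361 start-site peaks without an Eed+/+ peak. All 10 lay above the median fold enrichment of the list. Of the 361, 5 of the 10 highest and 9 of the 25 highest by fold enrichment were peaks of these genes, and *Smc1b*, at rank 68, was the exception. None of the 10 was as wide as the median peak of the list (2155 bp), and 9 of 10 were narrower than 2 kb, against 41.3% of all Eed-/- peaks and 62.6% of the 361. The median width was 1508.5 bp in the 10 and 1762 bp in the 361. Their median tag count of 173.5 lay between that of all Eed-/- peaks, 204, and that of the 361, 162. These ranks describe the values by which the genes were selected.

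**Figure D2:**
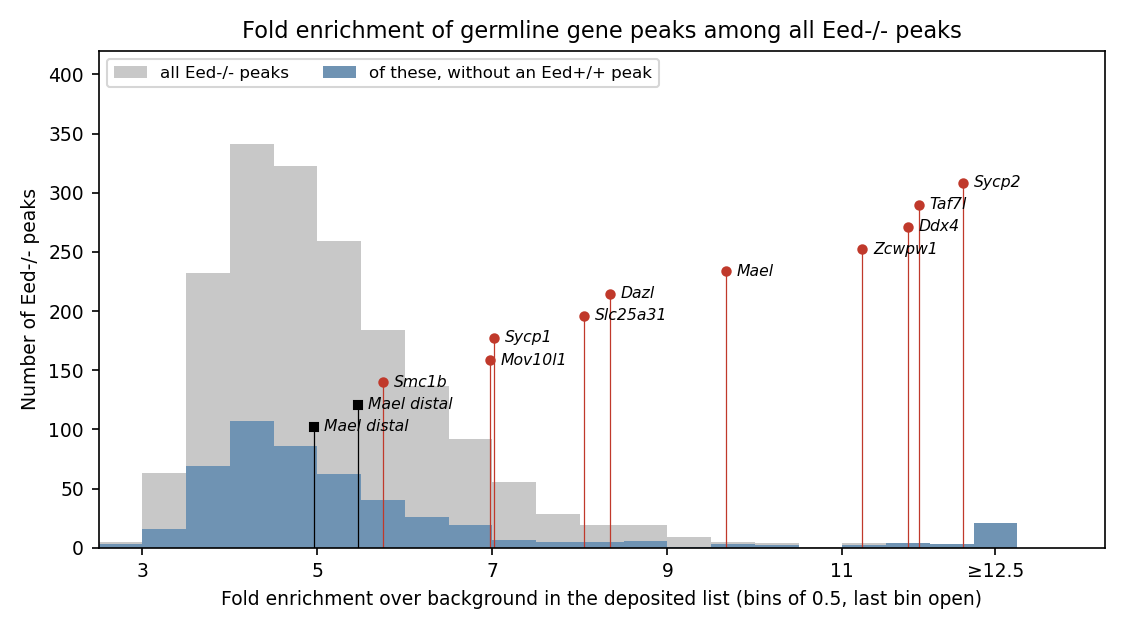
The histogram counts Eed-/- peaks (vertical axis) by fold enrichment over background (horizontal axis, bins of 0.5), with all peaks in grey and those without an Eed+/+ peak in blue, and stems mark the germline gene peaks (stem heights only separate the names). The start-site peaks (red) run from 5.75 for *Smc1b* to 12.38 for *Sycp2*, and the distal *Mael* peaks (black squares) sit at 4.96 and 5.46.

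A RING1B level was computed as tags per kb of peak per 1000000 mapped tags. On this scale the 10 start-site peaks had a median of 1.65, against 1.32 over all Eed-/- peaks, and 8 of 10 lay above that median. Over the 361 start-site peaks without an Eed+/+ peak the median was 1.25. The genes were chosen by the fold enrichment of these same peaks, so their levels are not independent of the choice. *Ddx4* was highest at 2.14 (1.86 to 2.45), followed by *Sycp2* at 2.06 (1.80 to 2.36) and *Zcwpw1* at 1.96 (1.72 to 2.23). *Mael* reached 1.79 (1.50 to 2.12) and *Sycp1* 1.73 (1.49 to 1.99). The middle of the order was close, with *Mov10l1* at 1.57 (1.32 to 1.85), *Dazl* at 1.56 (1.33 to 1.82) and *Slc25a31* at 1.54 (1.34 to 1.76).

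*Taf7l*, at 1.31 (1.11 to 1.54), and *Smc1b*, at 1.07 (0.886 to 1.28), had the lowest levels. The intervals of neighbours in this order all overlapped, whereas the interval of *Smc1b* overlapped only that of *Taf7l*. The order by level was not that by fold enrichment, as *Taf7l* ranked 3 of 361 by fold enrichment and 146 by level.

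At these start sites the Eed+/+ list sets only an upper limit on RING1B. Every deposited peak in either list held over 100 tags. Scaled to the Eed+/+ depth by mapped tags, the 10 Eed-/- start-site peaks would hold between 28.2 tags (*Smc1b*) and 54.7 tags (*Zcwpw1*), and 0 of the 12 peaks would pass 100, against 6.63% of all Eed-/- peaks. A peak of the same width with 100 tags at the Eed+/+ depth has a level of 2.94 (*Slc25a31*) to 5.63 (*Mael*), above the Eed-/- level in each of the 10. At these levels, a site with equal binding in both genotypes would be absent from the Eed+/+ list on this scaling, and a rise in Eed-/- cannot be read from its absence. A higher Eed+/+ level would have shown only past a bound. In a peak of the same width, over 100 tags needed an Eed+/+ level above 1.83 (*Zcwpw1*) to 3.55 (*Smc1b*) times the Eed-/- level. At the median ratio of Eed-/- to Eed+/+ level over shared peaks, 0.220, all 10 sites would have passed 100 tags in Eed+/+. That ratio comes only from sites listed in Eed+/+, where the same minimum keeps out most sites of equal level. It therefore cannot say what the 10 sites would hold in Eed+/+. With the total tags in each list's peaks as the depth (1.68 times higher in Eed+/+), 12 of 12 peaks would pass 100 tags, as would all 1810 Eed-/- peaks.

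**Figure D3:**
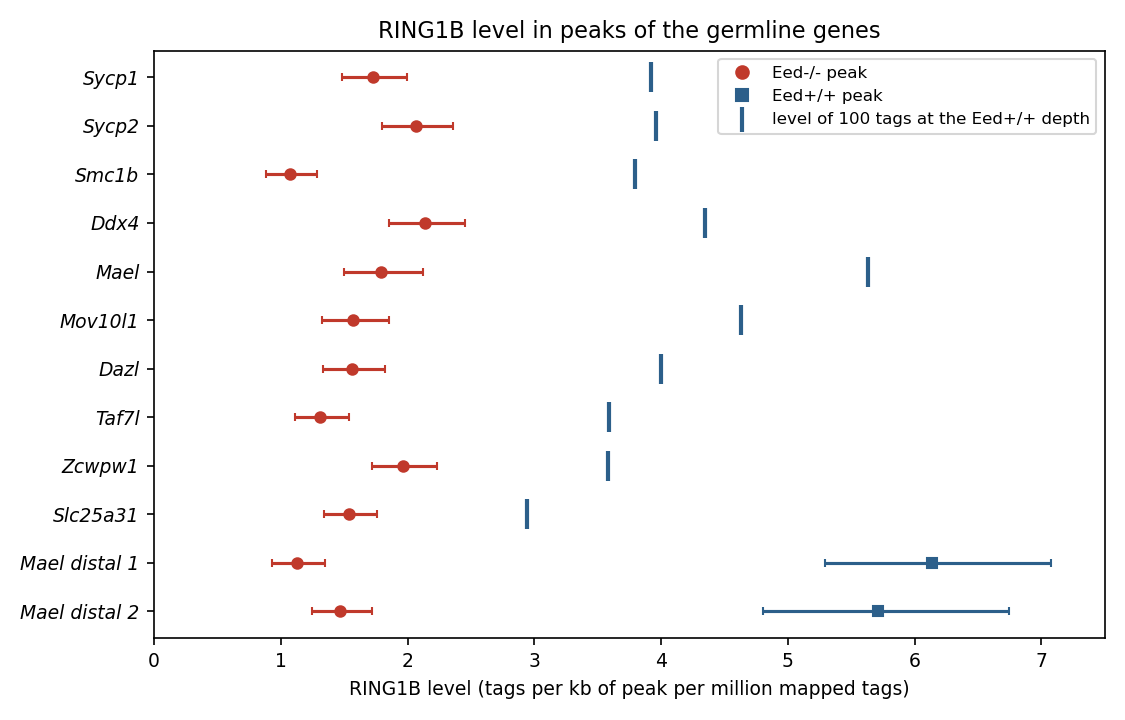
The plot gives the level of each peak (horizontal axis, tags per kb of peak per 1000000 mapped tags, with exact 95% counting intervals) for Eed-/- (red circles) and, where a peak was called, Eed+/+ (blue squares). Blue bars mark the level that 100 tags would have at the Eed+/+ depth in a peak of the same width, which is above the Eed-/- level at all 10 start sites.

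The only peaks that both lists assign to one of the 10 genes were the 2 distal *Mael* peaks, which lie over the starts of other genes. Of all Eed+/+ peaks, 46.9% had no Eed-/- peak. The first (168183794 to 168185257 in Eed-/-) holds the start of *Ildr2*, with its summit at -15363 bp from the *Mael* start. It held 116 tags in Eed-/- (fold enrichment 4.96, level 1.13) and 190 tags in Eed+/+ (168183795 to 168185635, fold enrichment 15.86, level 6.14). The second (168238398 to 168239869 in Eed-/-) holds the start of *5330438I03Rik*, with its summit at -70600 bp from the *Mael* start. It held 152 tags in Eed-/- (fold enrichment 5.46, level 1.47) and 139 tags in Eed+/+ (168238404 to 168239850, fold enrichment 22.12, level 5.71).

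At these distal sites the Eed-/- level was 0.184 (0.144 to 0.232) and 0.257 (0.203 to 0.326) of the Eed+/+ level, beside a median of 0.220 over all Eed-/- peaks that have an Eed+/+ peak. Scaled to the Eed+/+ depth, the distal Eed-/- peaks held 27.7 and 36.3 tags. An equal level would not have passed 100 tags in Eed+/+, so the direction was fixed by the minimum. The summits in the 2 genotypes were 86 and 154 bp apart. Among the peaks named for *Mael*, the Eed-/- level was 1.79 at the start site, against 1.13 and 1.47 at the distal sites.

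All 12 Eed-/- peaks overlapped a CpG island, as did 95.2% of all Eed-/- peaks, so this is near the level of the list. The islands measured from 420 bp (*Mov10l1*) to 1629 bp (*Taf7l*) at the 10 start sites and held the first annotated start in 9 of 10, the exception being *Sycp2*. Under a stricter island definition (500 bp, 55% GC and a CpG ratio of 0.65) 8 of 12 peaks overlapped an island, against 86.2% of all Eed-/- peaks. The CpG ratio, the number of CG dinucleotides over that expected from base composition, had a median of 0.678 in the start-site peaks and 0.678 in all Eed-/- peaks. The GC content of the start-site peaks had a median of 58.3%, against 60.9% in all Eed-/- peaks, and ranged from 51.6% (*Slc25a31*) to 68.7% (*Taf7l*).

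E-boxes stood at the starts of most of these genes. In the window from 250 bases before to 50 bases from the start, the E-box CACGTG, which reads the same on both strands, was present in 6 of 10 genes and in 7.78% of all 22362 protein-coding genes. Its first base lay at -29 in *Ddx4*, -49 in *Taf7l*, -77 in *Slc25a31*, -94 in *Sycp1*, -161 in *Mov10l1* and -223 in *Mael*, counted from the start base as 0. The E2F motif GCGGGAA, searched on both strands and sharing no full match with the E-box, was present in 3 of 10 (*Ddx4* at -136, *Smc1b* at -48 and *Slc25a31* at 35 after the start), against 5.72% of all genes. Either or both motifs were in 7 of 10 windows, against 12.9% of all windows. The genes and the motifs were chosen with earlier results of these data known, so these shares are a description.

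Both motifs contain CG, and most windows of these genes were rich in it, with a median CpG ratio of 0.852 against 0.542 for all genes. The *Sycp2* window, at 0.383, lay below the median of all genes. Among the 10231 genes with a window ratio of 0.6 or more, 11.2% held the E-box and 10.2% the E2F motif. Among the 1215 genes whose start lies in an Eed-/- peak, the shares were 11.1% and 8.64%. Among the 327 whose start lies in an Eed-/- peak without an Eed+/+ peak, a set that includes 9 of the 10 genes, they were 16.2% and 14.1%. Of 82 other germline genes (from the list described below) that neither peak list names, 16 held the E-box and 11 the E2F motif. The shorter E2F motif GCGGGA was in 5 of 10 windows of the germline genes. Its share was 24.7% of all genes, 43.6% of the 10231 and 48.9% of the 327, so its count in the germline genes was near that of the last 2 sets.

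**Figure D4:**
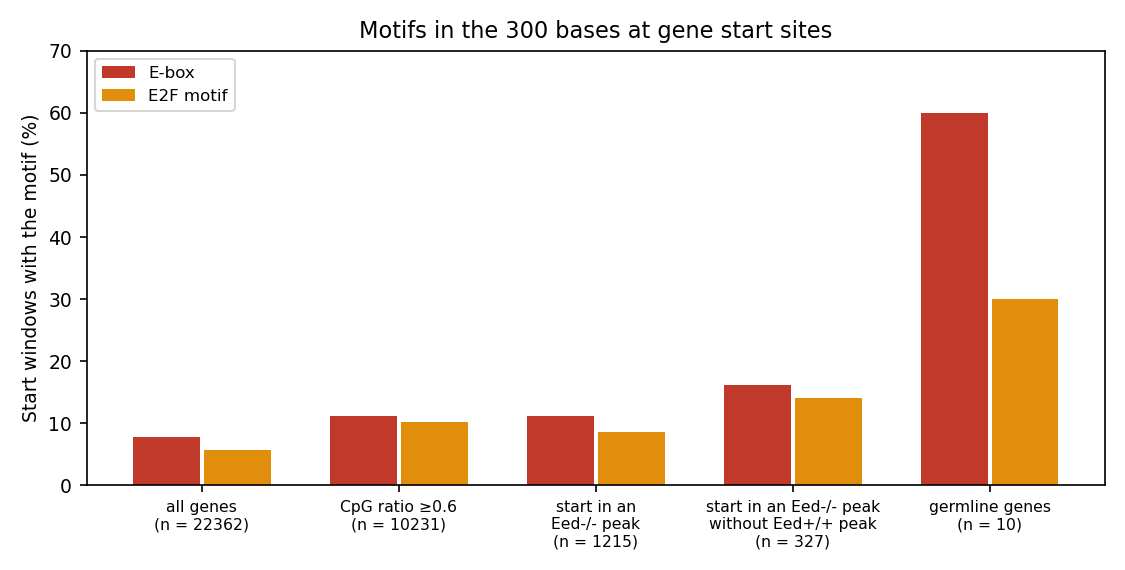
The bars give the percent of 300-base start windows that hold the E-box (red) or the E2F motif (orange) in 5 sets of genes, with the number of genes under each set. The 10 germline genes have 60% and 30%, and the other sets lie between 5.72% and 16.2%.

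The windows of *Sycp2*, *Dazl* and *Zcwpw1* held neither motif, but their peaks did. *Sycp2* had an E-box centred 440 bp into the gene, 116 bp from the summit. *Dazl* had E-boxes at 491 and 511 bp and an E2F motif at 526 bp, and these 3 lay 28, 48 and 63 bp beyond the summit. The second E-box is the lower-case cacgtg that ends the *Dazl* stretch shown above. *Zcwpw1* had an E2F motif at 59 bp, 57 bp before the summit. Anywhere in the peak, 9 of 10 start-site peaks held either or both motifs, against 63.6% of all Eed-/- peaks, and the *Taf7l* peak, which begins downstream of the E-box of that gene, held neither. The 10 peaks had 0.926 E-boxes per kb, against 0.240 in all Eed-/- peaks and 0.322 in start-site peaks without an Eed+/+ peak. For the E2F motif the densities were 0.463, 0.223 and 0.257 per kb. The shorter GCGGGA was in 8 of 10 start-site peaks, against 88.3% of all Eed-/- peaks.

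In the 300 bases centred on the summit, an E-box was present in 4 of 12 peaks (*Sycp2*, *Ddx4*, *Dazl* and the first distal *Mael* peak), against 9.89% of all Eed-/- peaks. The E2F motif was present in 5 of 12 (*Ddx4*, *Dazl*, *Smc1b*, *Zcwpw1* and the same distal peak), against 8.01%. Both stood together in 3 of 12, against 0.884%. The shorter GCGGGA was present in 7 of 12, against 39.2%. The summit windows thus held an E-box in fewer genes than the start windows did, as the motifs of *Sycp1*, *Mael*, *Mov10l1* and *Slc25a31* were centred between -237 bp (*Sycp1*) and -415 bp (*Mael* and *Slc25a31*) from the summit. These matches describe letters in the genome, and binding of any factor to them was not tested.

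Among 97 other germline genes from a list of the same pathways, most had no peak. By gene name, 7 had an Eed-/- peak and 6 an Eed+/+ peak, 4 of them in both lists, and 88 were in neither. Of all 22220 protein-coding gene names, 6.76% were named in the Eed-/- list and 8.1% in the Eed+/+ list, so the 7 and 6 of 97 are near the level of all genes. The 10 genes described above, chosen for an Eed-/- peak, were left out of the 97. These counts therefore do not give the share of germline genes as a whole. By class, an Eed-/- peak was found for 1 of 9 synaptonemal complex and cohesin genes, 1 of 28 genes of meiotic entry and recombination, 2 of 18 piRNA pathway genes, 2 of 9 germ cell RNA-binding and specification genes, 1 of 20 transcription and chromatin genes and 0 of 13 genes of sperm metabolism and structure. With synonyms of the gene names, 10 had an Eed-/- peak, a count for which no matching share over all genes was computed.

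The list genes with an Eed-/- peak and no Eed+/+ peak had fold enrichments from 4.77 to 10.2. *Tex12*, a central element protein of the synaptonemal complex, had 187 tags, with 7.44 as fold enrichment and 2.05 as level. *Spata22*, which acts on single-stranded DNA in meiotic recombination, had 211 tags at 5.99 and a level of 1.75, and *Tdrd1*, a Tudor protein of the piRNA pathway, had 118 tags at 4.77 and a level of 0.950. Found through synonyms, *Henmt1*, the piRNA methyltransferase, had 182 tags at 10.2, and *Gpat2*, an acyltransferase of the piRNA pathway, had 103 tags at 4.97. All 5 peaks lay over the start of the gene. The *Henmt1* peak also holds the start of *Gm9857*, which is transcribed the other way, so binding at these starts cannot be told apart.

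List genes with peaks in both genotypes had lower levels in Eed-/-, as the shared peaks of the whole list did (median ratio 0.220). The minimum of 100 tags fixed this direction. Scaled to the Eed+/+ depth, the Eed-/- peaks of these genes held between 27.0 tags (*Lhx8*) and 67.9 tags (*Boll*). An equal level would therefore not have been listed in Eed+/+. Levels were taken over peaks called separately in each genotype, whose widths can differ. The Eed-/- level was 0.439 (0.359 to 0.538) of the Eed+/+ level at *Boll*, a relative of *Dazl*, 0.406 (0.320 to 0.517) at *Meioc*, a meiotic RNA-binding factor named *Gm1564* in the lists, and 0.145 (0.123 to 0.171) at *Tdrd6*, a germ granule protein. The deposited fold enrichments were closer at *Boll* (6.32 in Eed-/- and 7.58 in Eed+/+) and *Meioc* (6.12 and 7.99) than at *Tdrd6* (5.13 and 27.81). At *Lhx8*, an oocyte transcription factor, 2 Eed-/- peaks (1206 and 1802 bp) lay within 1 Eed+/+ peak (4045 bp) at 0.140 and 0.135 of its level. A peak named for *Nanos2*, a germ cell RNA-binding protein, had its Eed-/- summit at -29810 bp from its start and stood at 0.329 (0.260 to 0.417). *Prdm1* and *Prdm14*, transcription factors of germ cell specification, were in the Eed+/+ list alone, and 46.9% of all Eed+/+ peaks had no Eed-/- peak. The *Prdm1* summit lay at -68551 bp from the start used, in a peak over the start of another annotated transcript of the gene.

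The start windows of the list genes with an Eed-/- peak alone held a motif in 3 of 5 (*Tex12* both, *Spata22* the E2F motif, *Tdrd1* the E-box), and those of genes with peaks in both lists in 0 of 5. Among the latter, the window searched lay outside the peak at *Nanos2* and at *Meioc*. The *Meioc* Eed-/- peak began 1281 bp downstream of the start used, so these counts do not compare like sites. With synonyms, 85 list genes were in neither list, and 82 of these had a start window in the annotation. A motif was present in 24 of those 82, 16 of them with the E-box, against 12.9% of all windows with either motif. For the 10 genes described above the count was 7 of 10. Motifs thus stood at list genes with and without a peak, and a tie between motif and binding was not tested.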

How the data were processed

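A single deposited list of RING1B peaks per genotype was described. Using bowtie, the authors aligned tags to mm9 (unique positions, -m 1). They called peaks with MACS, kept those with an FDR under 2% and over 100 tags, and named the nearest gene with CisGenome and their own scripts. Mapped tags were 16814546 for Eed+/+ and 70343706 for Eed-/-. Not given in the sources used here are tool versions and the control library of MACS. The deposited lists hold raw tag counts, an FDR in percent, a fold ratio over background and a significance score derived from p. The authors' columns of overlap between lists were not used.

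Peaks overlapped when they shared 1 bp. Levels were tags per kb of peak per 1000000 mapped tags, with exact Poisson intervals, and input was not subtracted. The ratio of 2 levels carries an exact interval that conditions on the summed tags. Start sites came from GENCODE M1 and sequence from NCBIM37, the mm9 build. To find CpG islands, a running score (17 for CG, -1 otherwise) was used, and islands were kept at 200 bp, 50% GC and a CpG ratio of 0.6, which gave 23578. Overlap, motif and island code was tested on simulated data. No test was run, since each genotype is 1 sample. The 10 genes, the 97-gene list and the motifs were chosen with earlier results of these data known. The text names the 10 genes and each list gene that either peak list names. Software was numba 0.67.0, matplotlib 3.10.9, scipy 1.17.1, numpy 2.4.6 and Python 3.11.15.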

Additional observations from a re-analysis of the deposited data

How the results depend on the processing

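No paired analysis was possible because each genotype has 1 peak list and no result comes from a test. Of 20 alternatives, 15 left the count or median within 1.5 times its value or its counting interval, and 5 moved it. Counts were compared without regard to their totals. An E-box in 6 of 10 start windows thus passed as unmoved beside 4 of 12 summit windows, and the tally is no measure of robustness. Scaling by the tags in all peaks of the list gave a median level of 250.7 per kb per 1000000 peak tags, on another scale than 1.57 per 1000000 mapped tags for the 12 peaks, and 12 rather than 0 of 12 peaks over 100 tags at the Eed+/+ depth. Over the whole peak, 8 rather than 4 of 12 held an E-box, against 40.7% of all Eed-/- peaks. In start windows, 3 of 10 genes held the E2F motif, against 5 of 12 summit windows. With peaks of FDR 1% or less, 4 rather than 7 list genes had an Eed-/- peak. That filter left 7 of the 12 peaks, all 7 at start sites. None of the 7 had an Eed+/+ peak, which the choice of the genes fixed, and 14.2% of all Eed-/- peaks it left had none. With an overlap of 50% of both peaks, 10 of 12 had no Eed+/+ peak, a count also fixed by the choice, and 41.7% of all Eed-/- peaks had none. The depth of the Eed+/+ library limits every statement on the absence of a peak there.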

Other observations

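The deposited annotation gives gene ontology processes for each peak. Processes of germ cells, meiosis or piRNA were attached to 6 of the 10 genes (*Sycp1*, *Sycp2*, *Taf7l*, *Dazl*, *Mael* and *Smc1b*) and not to *Ddx4*, *Mov10l1*, *Slc25a31* or *Zcwpw1*. In the whole Eed-/- list 50 peaks carried such a process, 15 of them without an Eed+/+ peak (26.9% of all Eed-/- peaks had none), and 9 of those 15 were named for genes other than the 10. In the Eed+/+ list 42 peaks did, 8 of them without an Eed-/- peak, against 46.9% of all Eed+/+ peaks.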
